A study of Mus musculus with 12 samples.

Results

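The genes described are 10 of the 19505 genes measured on this array: Hif1a, its hydroxylases Egln1, Egln2 and Egln3, the ubiquitin ligase component Vhl, the mitophagy receptors Bnip3 and Bnip3l, the kinase Pdk1, and the hypoxia-responsive genes Ankrd37 and Vegfa. They were chosen by symbol, with measured values of these arrays already known: several had been seen to be higher in signal with TsSP and LPS than with LPS alone. The signal that stood for a gene was that of its probe set with the highest mean, and each of the 10 genes had exactly 1 probe set. The cells were RAW264.7, a mouse macrophage line transformed by a leukaemia virus. The 4 treatments had 3 arrays each: inulin (500 µg/mL), TsSP (50 µg/mL) and LPS (500 ng/mL), then TsSP and LPS, then inulin and LPS, then LPS alone, at the same concentrations throughout. TsSP is written as in the labels, and the study's design text speaks of helminth products. Inulin is a fructose polymer from plants, and LPS is the bacterial lipopolysaccharide that activates macrophages through a Toll-like receptor. Cells were incubated for 6 hours at 37°C in 5% CO2, and all 12 arrays come from cells given LPS, so no level without LPS is given. The sources do not say whether the 3 arrays of a group were separate cultures, so p-values measure the spread between these arrays, which may be technical.

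Hypoxia-inducible factor 1 (HIF-1) is a transcription factor whose alpha subunit, the product of Hif1a, is made continuously and destroyed while oxygen is present. The EGLN prolyl hydroxylases use oxygen to mark the subunit, and the VHL protein recognises the mark and hands the subunit to a ubiquitin ligase. When the enzymes slow down, the subunit accumulates, pairs with ARNT and binds a short sequence in the promoters of its targets, among them Bnip3, Pdk1, Vegfa, Ankrd37 and some of the EGLN genes themselves, which closes a feedback loop. In macrophages LPS also raises Hif1a transcription, with oxygen present. BNIP3 and BNIP3L sit in the outer mitochondrial membrane and tether mitochondria to the growing autophagosome, the process called mitophagy, and PDK1 switches off pyruvate dehydrogenase, the enzyme that turns pyruvate into acetyl-CoA in the mitochondrion. The arrays measured RNA and not protein, hydroxylation or oxygen.

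Upstream sequences are shown for the 4 members with the largest increases and for Vhl, which was higher with TsSP but holds no match to the HIF core sequence in this window. Each line gives the 250 bases before the annotated start of the gene on the strand of the gene, 5′ to 3′, from RefSeq on GRCm38.p6. The letters searched were ACGTG and GCGTG, the core of the hypoxia response element, on both strands, so that CACGT and CACGC mark a match on the other strand, and matches are in capitals. The match ACGTG also lies within the E-box CACGTG, which other transcription factors bind. The windows were chr7:138909507-138909756 on the minus strand for Bnip3, chr8:124949255-124949504 on the minus strand for Egln1, chr2:71872974-71873223 on the plus strand for Pdk1, chr8:45999851-46000100 on the minus strand for Ankrd37 and chr6:113623744-113623993 on the plus strand for Vhl.
Bnip3: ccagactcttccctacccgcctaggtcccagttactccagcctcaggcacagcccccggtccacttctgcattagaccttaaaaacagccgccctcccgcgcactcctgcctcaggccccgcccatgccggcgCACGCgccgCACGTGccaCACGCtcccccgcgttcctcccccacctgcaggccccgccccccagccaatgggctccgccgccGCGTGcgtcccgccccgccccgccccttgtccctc
Egln1: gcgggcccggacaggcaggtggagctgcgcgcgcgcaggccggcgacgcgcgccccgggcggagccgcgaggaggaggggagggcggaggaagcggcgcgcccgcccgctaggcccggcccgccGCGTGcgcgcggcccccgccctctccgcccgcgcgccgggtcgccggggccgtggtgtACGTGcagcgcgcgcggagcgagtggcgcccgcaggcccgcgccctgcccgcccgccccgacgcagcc
Pdk1: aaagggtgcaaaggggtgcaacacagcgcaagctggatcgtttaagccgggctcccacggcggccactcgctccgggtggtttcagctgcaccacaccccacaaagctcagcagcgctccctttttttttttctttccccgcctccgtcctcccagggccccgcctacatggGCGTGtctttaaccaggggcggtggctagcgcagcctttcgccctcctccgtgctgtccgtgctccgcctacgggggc
Ankrd37: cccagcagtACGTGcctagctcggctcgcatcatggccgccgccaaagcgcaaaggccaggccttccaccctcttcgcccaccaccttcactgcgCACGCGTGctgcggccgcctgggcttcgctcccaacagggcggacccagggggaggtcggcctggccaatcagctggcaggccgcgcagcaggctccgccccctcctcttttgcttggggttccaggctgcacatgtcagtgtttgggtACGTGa
Vhl: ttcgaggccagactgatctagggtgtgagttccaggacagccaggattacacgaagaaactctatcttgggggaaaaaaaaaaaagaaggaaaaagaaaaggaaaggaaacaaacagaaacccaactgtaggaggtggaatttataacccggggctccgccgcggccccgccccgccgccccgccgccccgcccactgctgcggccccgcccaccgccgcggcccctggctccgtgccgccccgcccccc

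The Bnip3 window held 5 matches, 1 pair of which formed a CACGTG, and the Ankrd37 window held 4, 1 pair of which overlapped in CACGCGTG. Egln1 had 2 matches, and Pdk1 had 1 in the window shown and 0 in its other window. Of the members not shown, Egln2 had 4 matches in its first window and 1 in its second. Hif1a had 3, 1 pair of which formed a CACGTG, Egln3 had 1, and the 2 windows of Vegfa had 0 and 2. The second windows of Pdk1, Egln2 and Vegfa lie downstream of the first on the strand of the gene. Their letters can therefore fall within the gene and not before it. Bnip3l had no window among the sequences used. In all, 9 of the 12 windows of the other 9 members held at least 1 match. Of the 32851 windows of the same length over all genes, 38.6% did. At least 4 matches were found in 2.58% of all windows. The share of G and C was 72.4% for Bnip3, 67.6% for Ankrd37 and 59.2% for the first Egln2 window, the 3 windows with at least 4 matches, and 86.0% for Egln1, against a median of 52.4% over all windows, and the part of base composition in the number of matches was not tested. A match gives letters and not a bound site, and no match says only that these letters are not in this window.

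With TsSP added to inulin and LPS, 8 of the 10 genes rose: Bnip3 17.7-fold, Pdk1 10.9-fold, Egln1 7.97-fold, Hif1a 2.68-fold, Bnip3l 2.07-fold, Egln2 and Vhl 1.69-fold each, and Ankrd37 at least 2.84-fold. Egln3 and Vegfa did not pass the test. This comparison used arrays other than those of TsSP with LPS and of LPS alone. It was tested with limma over all 19505 genes, with Benjamini-Hochberg adjustment and a threshold of 0.05. Over all genes 8.66% rose and 7.99% fell by the same test, and 17.0% of the 9022 genes above background on all arrays of at least 1 group rose. A signal was taken as above background when it passed the brightest of 23 background probes on its own array. By size of increase Bnip3 ranked 5, Pdk1 15 and Egln1 28 among the 19505 genes. The median difference of the 10 genes was 1.24 on the log2 scale, with Egln3 below background and Ankrd37 at its measured value among them, and the median over all genes was -0.001. The 3 arrays with TsSP lay above the 3 without it for 8 of the 10 members, and for 16.8% of all genes.

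**Figure D1:**
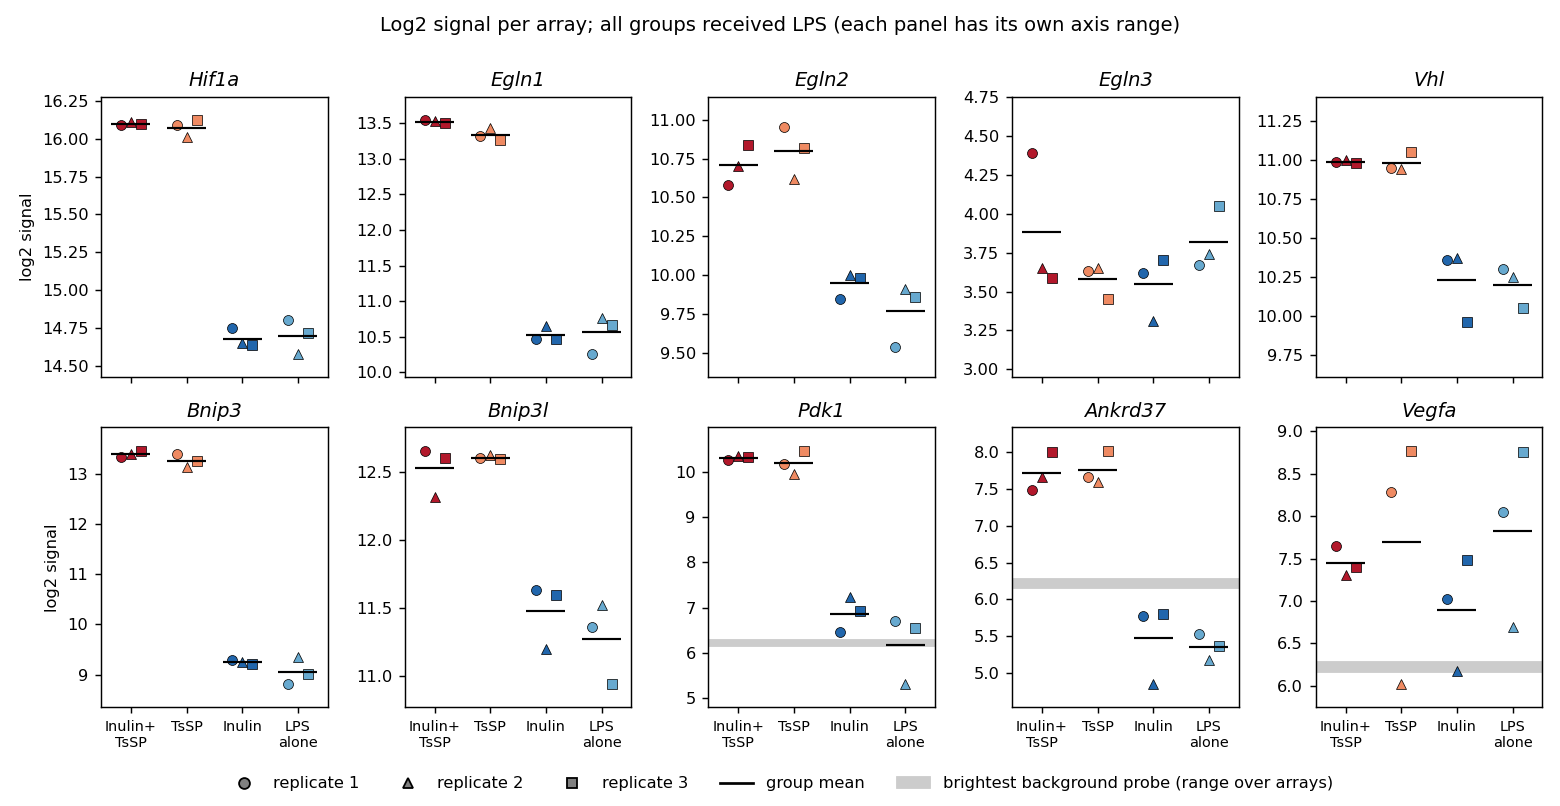
Log2 signal of each of the 10 genes (vertical axes) on each of the 12 arrays, by treatment group along the horizontal axes, with 1 point per array, a black line at the mean of the group and a grey band at the brightest background probe. The groups with TsSP stand above those without it for 8 genes, with the widest gaps for Bnip3, Pdk1 and Egln1, while the 3 arrays of a group are spread widely for Vegfa and Egln3 is below background throughout.

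Hif1a, the oxygen-labile subunit, varied little within a group. Its log2 signal was 16.09, 16.11 and 16.10 with inulin, TsSP and LPS, and 14.75, 14.65 and 14.64 with inulin and LPS. With TsSP and LPS it was 16.09, 16.01 and 16.12, and with LPS alone 14.80, 14.58 and 14.72. The 6 arrays with TsSP lay close together, and a gap of over 1 log2 unit separated them from the 6 without it. TsSP added to inulin raised Hif1a by 1.42 (SE 0.11, limma adjusted p = 3.31e-06). The mean was 1.37 higher with TsSP and LPS than with LPS alone (SE 0.11), a comparison that is given as a description because the members were known to differ in it.

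The 3 hydroxylases differed among themselves. Egln1, generally held to be the main oxygen sensor among them, had log2 signals of 13.54, 13.53 and 13.50 with inulin, TsSP and LPS, against 10.47, 10.65 and 10.47 with inulin and LPS. With TsSP and LPS the signals were 13.32, 13.44 and 13.27, against 10.26, 10.76 and 10.66 with LPS alone. The groups with TsSP were thus far above the groups without it, and the difference of 3.00 with inulin present had a 95% interval of 2.69 to 3.30 (limma adjusted p = 1.1e-07). The difference from LPS alone was 2.78 for TsSP (SE 0.14), and it was 2.63 without replicate 1 of LPS alone, the lowest of those 3 arrays.

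Egln2, a relative of Egln1 that is found largely in the nucleus, moved less. Its signals were 10.58, 10.70 and 10.84 with inulin, TsSP and LPS, and 9.85, 10.00 and 9.98 with inulin and LPS. The groups did not overlap, and the difference was 0.76 (SE 0.14, limma adjusted p = 0.00256). With TsSP and LPS the mean was 10.80 ± 0.17 (SD, n = 3), against 9.77 ± 0.20 with LPS alone. Egln3, a hydroxylase whose gene is itself a well known hypoxia target in other cells, was below background on all 12 arrays, with signals between 3.31 and 4.39. Its difference with TsSP added to inulin was 0.33 (95% interval -0.13 to 0.79, limma adjusted p = 0.356), and no fold is given. The 3 arrays of Egln3 with TsSP and LPS lay below the 3 with LPS alone, as was so for 13.6% of all genes, and all 6 values were below background.

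Vhl, which recognises the hydroxylated subunit, was closely alike within each TsSP group. It measured 10.99, 11.00 and 10.98 with inulin, TsSP and LPS, and 10.36, 10.37 and 9.96 with inulin and LPS. With TsSP and LPS it measured 10.95, 10.94 and 11.05, and with LPS alone 10.30, 10.25 and 10.05. All 6 arrays with TsSP were above all 6 without it. The rise with TsSP added to inulin was 0.76 (SE 0.13, limma adjusted p = 0.002), and the difference of TsSP from LPS alone was 0.78 (SE 0.13).

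Bnip3 had the largest difference of all members. The log2 signal was 13.34, 13.40 and 13.46 with inulin, TsSP and LPS, and 9.30, 9.25 and 9.21 with inulin and LPS. It was 13.40, 13.13 and 13.26 with TsSP and LPS, and 8.81, 9.36 and 9.02 with LPS alone. No array with TsSP came within 3 log2 units of any array without it. TsSP added to inulin raised it by 4.15 (95% interval 3.83 to 4.46, limma adjusted p = 1.47e-08), and TsSP with LPS exceeded LPS alone 18.4-fold.

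Bnip3l, the other receptor, known in red cell precursors for clearing mitochondria, rose less. The signals were 12.66, 12.32 and 12.61 with inulin, TsSP and LPS, and 11.63, 11.20 and 11.60 with inulin and LPS. With TsSP and LPS they were 12.61, 12.63 and 12.60, and with LPS alone 11.36, 11.52 and 10.94. The groups with and without TsSP did not overlap, though 1 array in each inulin group was lower than its companions. The rise was 1.05 (SE 0.17, limma adjusted p = 0.00129) with inulin present. Levels of different probe sets were not set against each other, since a probe set's brightness also depends on its sequence.

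Pdk1, the kinase of pyruvate dehydrogenase, was higher with TsSP on all arrays. Its signals were 10.27, 10.36 and 10.33 with inulin, TsSP and LPS, against 6.46, 7.24 and 6.92 with inulin and LPS. They were 10.17, 9.96 and 10.47 with TsSP and LPS, against 6.70, 5.31 and 6.54 with LPS alone, where replicate 2 was below background. The groups without TsSP were near background and spread more widely. The difference with TsSP added to inulin was 3.45 (95% interval 2.74 to 4.15, limma adjusted p = 1.82e-05). TsSP with LPS exceeded LPS alone at least 12.9-fold, a bound taken with the background level in place of the array below it.

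Ankrd37, an ankyrin repeat gene known as a HIF-1 target, was above background only with TsSP. It measured 7.49, 7.66 and 8.00 with inulin, TsSP and LPS, and 5.77, 4.85 and 5.80 with inulin and LPS. It measured 7.67, 7.59 and 8.02 with TsSP and LPS, and 5.53, 5.18 and 5.37 with LPS alone. All 6 values without TsSP were below background, so folds are lower bounds. The difference with TsSP added to inulin was 2.24 (SE 0.25, limma adjusted p = 6.61e-05).

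Vegfa, the angiogenic growth factor and a classical HIF-1 target, passed the test in no comparison. Its signals were 7.65, 7.30 and 7.40 with inulin, TsSP and LPS, and 7.02, 6.17 and 7.48 with inulin and LPS. They were 8.28, 6.02 and 8.77 with TsSP and LPS, and 8.05, 6.69 and 8.75 with LPS alone. The groups overlapped, and replicate 2 was the lowest array of each of the 4 groups, below background with TsSP and LPS and with inulin and LPS. With TsSP added to inulin the difference was 0.56 (95% interval -0.91 to 2.03, limma adjusted p = 0.666), so that a rise of up to 2.03 log2 units lies within its interval at this spread. The difference of TsSP with LPS from LPS alone was -0.14 (SE 0.67), and it ranged from -0.71 to 0.70 when single arrays were left out.

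**Figure D2:**
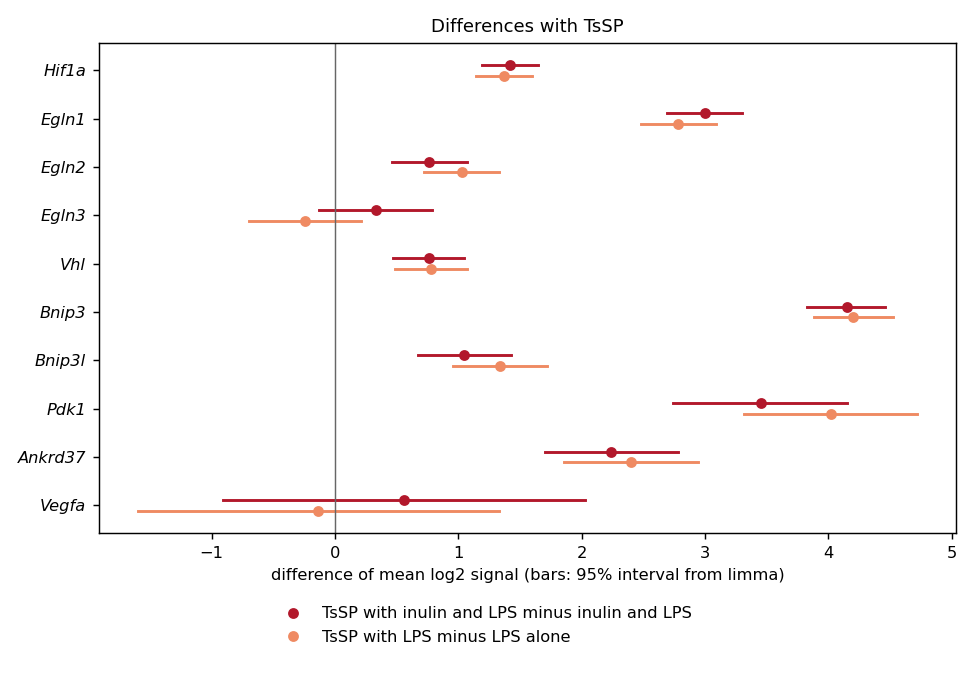
Difference of mean log2 signal with TsSP (horizontal axis) for the 10 genes, with inulin present (dark points, inulin, TsSP and LPS minus inulin and LPS) and without it (light points, TsSP and LPS minus LPS alone), with 95% intervals from limma. Both points lie to the right of 0 with intervals clear of it for 8 genes, from 0.76 for Egln2 and Vhl with inulin to 4.20 for Bnip3, and the intervals of Egln3 and Vegfa include 0.

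The 2 other comparisons with TsSP share the arrays of LPS alone. The members were noticed in TsSP with LPS against LPS alone, and the comparison with inulin as well shares only its LPS arrays. TsSP with LPS was higher than LPS alone for 8 of the 10 genes past the threshold, where 11.0% of all genes were higher and 7.08% lower, and the groups stood apart upward for 8 genes, as for 19.1% of all genes. Nothing is read from these counts, since the members were known to be higher in this comparison. With inulin as well, TsSP was higher than LPS alone for 8 of the 10 genes, where 10.3% of all genes were higher. For Bnip3 the difference from LPS alone was 4.34 for inulin, TsSP and LPS and 4.20 for TsSP and LPS. For Pdk1 it was 4.14 for inulin, TsSP and LPS and 4.02 for TsSP and LPS at the measured values. As folds these are bounds of at least 14.1 and 12.9, since replicate 2 of LPS alone was below background. For Egln1 the difference from LPS alone was 2.97 and for Hif1a 1.40 with inulin, TsSP and LPS. No member was lower past the threshold in either comparison.

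Inulin by itself did not move the members past the threshold. Between inulin with LPS and LPS alone, the differences ran from -0.94 for Vegfa to 0.69 for Pdk1, and none passed the test, as was so for all genes (0% called). For Hif1a the difference was -0.02, with a 95% interval of -0.25 to 0.21, and for Egln1 -0.03, with an interval of -0.33 to 0.27. Those intervals are narrow beside the rises with TsSP. Pdk1 had the largest positive difference of the 10 genes, 0.69 with an interval of -0.01 to 1.39 (limma adjusted p = 0.85), and its arrays overlapped. Replicate 2 of LPS alone was below background for Pdk1, and the difference ranged from 0.255 to 0.953 when single arrays were left out. By limma without adjustment, 1143 of the 19505 genes had a p under 0.05, and no member was among them.

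Adding inulin to TsSP and LPS gave differences from -0.24 for Vegfa to 0.30 for Egln3, and none of the 10 genes passed (0% of all genes called, 971 with an unadjusted p under 0.05 by limma, no member among them). For Bnip3 the difference was 0.14, with an interval of -0.18 to 0.45, and for Hif1a 0.03, with an interval of -0.20 to 0.26. Egln1 was the only member whose 3 arrays with inulin, TsSP and LPS lay above the 3 with TsSP and LPS. Its difference was 0.18 (interval -0.12 to 0.49, limma adjusted p = 0.993), and 5.22% of all genes were apart in that direction.

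Whether the TsSP difference itself changed with inulin was tested as an interaction, which also holds the arrays in which the members were noticed. No member passed (0% of all genes called, 1089 with an unadjusted p under 0.05 by limma, no member among them). The change in the TsSP difference was -0.05 for Bnip3 (interval -0.50 to 0.39), 0.05 for Hif1a (interval -0.28 to 0.37) and -0.57 for Pdk1 (interval -1.56 to 0.42). The smallest adjusted p was 0.916, for Egln3, which was below background. The intervals for Pdk1, Vegfa and Egln3 include changes of over 1 log2 unit. For Pdk1, with replicate 2 of LPS alone below background, the change ranged from -0.832 to -0.134 when single arrays were left out.

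**Figure D3:**
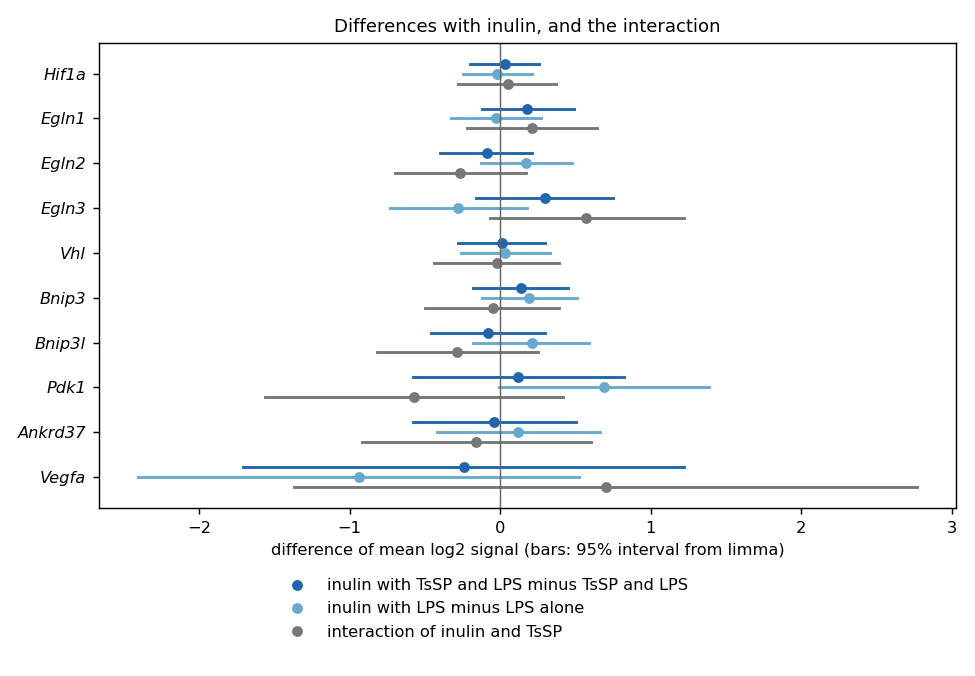
Difference of mean log2 signal with inulin (horizontal axis) for the 10 genes, with TsSP present (inulin, TsSP and LPS minus TsSP and LPS) and without it (inulin and LPS minus LPS alone), with 95% intervals from limma. Grey points give the interaction, which is the change in the TsSP difference with inulin. All intervals include 0, and the interval for Vegfa is the widest in each series.

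Around the members, the pathway was read from 6 lists that were written with the members known, and the counts below leave the members out. Of the HIF subunits and cofactors, Cited2 fell and Pkm rose among 8 measured genes with TsSP added to inulin, where 8.66% of all genes rose and 7.99% fell. Cited2, which competes with HIF-1 for its coactivators and is itself a HIF target, measured 14.20 ± 0.12 with inulin, TsSP and LPS and 15.76 ± 0.12 with inulin and LPS (SD, n = 3 each), a 2.94-fold fall (limma adjusted p = 9.29e-06). Pkm, a glycolytic kinase and HIF coactivator, was 0.42 higher (adjusted p = 0.0205 by limma), and its call was lost without replicate 3 of inulin, TsSP and LPS (adjusted p = 0.0748) and without replicate 2 or 3 of inulin and LPS (adjusted p = 0.0508 and 0.0741). It was also lost with quantile normalization (adjusted p = 0.069) and with only the compared arrays (adjusted p = 0.0632). Arnt2, a partner subunit, differed by 0.71 (adjusted p = 0.0652), and passed without replicate 3 of inulin and LPS (adjusted p = 0.0371), with a mean-variance trend (adjusted p = 0.0212) and over above-background genes only (adjusted p = 0.0244). Epas1, the related alpha subunit, differed by -0.31 and did not pass (adjusted p = 0.375). The list median without members was -0.07.

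Of the hydroxylation and ligase list, none of 8 other genes rose and 2 fell, where 8.66% of all genes rose and 7.99% fell, and counts this small do not set the list apart. Cul2, the scaffold of the VHL ligase, was 0.51 lower in log2 terms, a 1.43-fold fall (limma adjusted p = 0.00571), while Vhl itself rose. Siah2, a ligase for EGLN proteins, was 1.32-fold lower (limma adjusted p = 0.0493), and it missed the threshold in 10 of the 12 fits that left out 1 array (adjusted p = 0.166 without replicate 3 of inulin, TsSP and LPS). Elongin C (Eloc) and elongin B (Elob), which join VHL to the ligase, differed by 0.20 (adjusted p = 0.252) and 0.18 (adjusted p = 0.339) and did not pass. The median of the list without members was 0.02.

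Among known HIF targets outside glycolysis, 13 of 27 genes that are not members rose and 1 fell, where 8.66% of all genes rose and 7.99% fell. Their median difference was 0.48, and 18 of the 27 were above background in at least 1 group, where 17.0% of genes rose. Mxi1, an antagonist of MYC, measured 11.57, 11.61 and 11.86 with inulin, TsSP and LPS, and 9.02, 8.81 and 9.37 with inulin and LPS, a 6.11-fold rise (limma adjusted p = 1.15e-06). Bhlhe40, a transcriptional repressor, rose 4.40-fold (limma adjusted p = 1.87e-05), and Fam162a, a mitochondrial protein gene, rose 3.04-fold (limma adjusted p = 1.41e-05). The others that rose were Narf, Plod2, P4ha2, Kdm3a, Ndrg1, Ddit4, Ero1a, Higd1a, Plod1 and Lonp1, by 0.48 to 2.35 log2 units. Lonp1, a mitochondrial protease, missed the threshold without replicate 1 of inulin and LPS (adjusted p = 0.0523 by limma) and with only the compared arrays (adjusted p = 0.0588). Edn1, the vasoconstrictor endothelin, fell. It measured 7.35, 7.83 and 7.75 with inulin, TsSP and LPS, and 9.61, 9.83 and 9.92 with inulin and LPS, a 4.41-fold fall (limma adjusted p = 1.97e-06).

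Of 25 other mitophagy and autophagosome genes, 6 rose and 3 fell, with a median of 0.17. Of the 25, 24 were above background in at least 1 group, where 17.0% of genes rose, and 7.99% of all genes fell, so the counts do not set the list apart. Bnip3 had the largest positive difference on that list. Tax1bp1, an autophagy receptor, rose 1.49-fold (limma adjusted p = 0.00314), and Map1lc3b, which coats the autophagosome, rose 1.67-fold (limma adjusted p = 0.00354). Ulk1, the kinase that starts autophagy, rose at least 1.05-fold and was above background on 1 of 3 arrays with inulin, TsSP and LPS and on 0 of 3 with inulin and LPS (limma adjusted p = 0.00471), and Gabarapl1, Atg5 and Fkbp8 were the other genes that rose. Atg13, a partner of ULK1, fell 3.40-fold (limma adjusted p = 0.000127). It measured 7.04, 7.23 and 6.93 with inulin, TsSP and LPS, and 8.91, 8.49 and 9.09 with inulin and LPS. Ambra1, an activator of the same step, and Sqstm1, a cargo receptor, also fell, 1.67-fold and 1.33-fold. Without replicate 3 of inulin, TsSP and LPS, the calls of Sqstm1 (adjusted p = 0.0768), Fkbp8 (adjusted p = 0.0595) and Atg5 (adjusted p = 0.0586) were lost. Single arrays of other groups did the same for Sqstm1 (replicates 1 and 3 of inulin and LPS, adjusted p = 0.0749 and 0.0601), Fkbp8 (replicate 3 of inulin and LPS, adjusted p = 0.0537) and Atg5 (replicate 1 of inulin, TsSP and LPS and replicate 2 of inulin and LPS, adjusted p = 0.0531 and 0.0615). Sqstm1 also missed the threshold with only the compared arrays (adjusted p = 0.0694).

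In the pyruvate dehydrogenase list, Pdk2 and Pdp2 rose and Pdhx fell among 11 other genes, where 17.0% of genes above background rose and 7.99% of all genes fell, so the counts do not set the list apart. Pdk2, another kinase of the complex, was below background on all arrays without TsSP and rose at least 2.48-fold with TsSP added to inulin (limma adjusted p = 0.000426). Pdp2, a phosphatase that opposes the kinases, rose 1.57-fold (limma adjusted p = 0.0175), and missed the threshold without replicate 1 of inulin, TsSP and LPS (adjusted p = 0.0551), without replicate 2 or 3 of inulin and LPS (adjusted p = 0.0542 and 0.0522) and with only the compared arrays (adjusted p = 0.0574). Pdhx, a structural subunit, was 1.47-fold lower (limma adjusted p = 0.0457), and missed the threshold in 9 of the 12 such fits (adjusted p = 0.166 without replicate 1 of inulin and LPS). Mpc1, a subunit of the carrier that brings pyruvate into the mitochondrion, differed by 0.31 (adjusted p = 0.151), and passed with a mean-variance trend (adjusted p = 0.0375) and over above-background genes only (adjusted p = 0.0462). The median without members was 0.14.

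In the VEGF list, Vegfb rose 1.73-fold (limma adjusted p = 0.0228) and Nrp2, a coreceptor, fell 1.41-fold (limma adjusted p = 0.00992) among 8 other genes, where 8.66% of all genes rose and 7.99% fell. Vegfb missed the threshold without replicate 1 or 2 of inulin, TsSP and LPS (adjusted p = 0.0658 and 0.0761) and without replicate 2 of inulin and LPS (adjusted p = 0.0883). Only these 2 of the 8 were above background in a group, and the receptor gene Flt1 and the ligand gene Vegfd were below it.

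**Figure D4:**
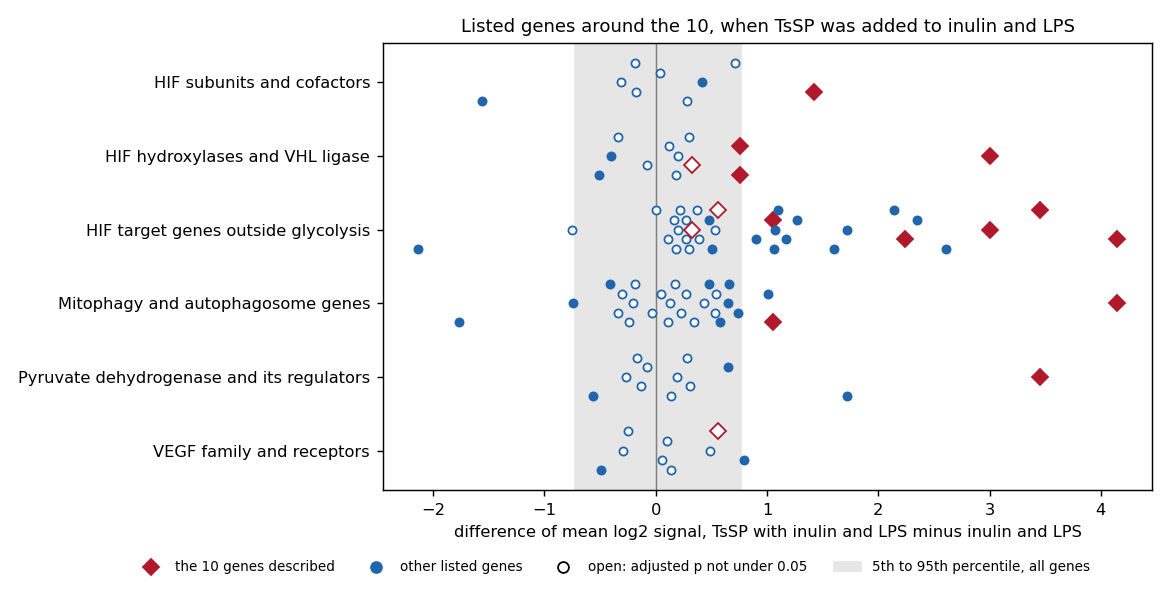
Differences of mean log2 signal, inulin, TsSP and LPS minus inulin and LPS, for the measured genes of the 6 lists, with 1 point per gene. Red diamonds are the 10 genes, blue circles the other listed genes, open symbols did not pass the limma test, and the grey band runs from the 5th to the 95th percentile of all genes (-0.73 to 0.77). Bnip3, Pdk1 and Egln1 lie furthest to the right and Edn1 furthest to the left.

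The genes whose pattern over the 12 arrays was most like that of Bnip3 were Gys1, Il1f9, Tnfrsf9, Hmox1 and Cyb5a, with Pearson correlations from 0.9961 to 0.9984. Those most like Hif1a were Sc5d, Rab3il1, Bst1, Pfkl and Il19, with correlations from 0.9952 to 0.9968. Correlations were ranked over 8839 genes above background in a group, and the arrays fall into 2 clusters by TsSP, so a high value says chiefly that a gene moved with TsSP. Over 0.95 were 581 genes for Bnip3 and 499 for Hif1a. Of these 10, Il19, a cytokine gene, had a difference of 5.43 with TsSP added to inulin, and Gys1, glycogen synthase, one of 2.41.

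The arrays were similar to each other. Medians over all probe sets were 5.163 to 5.3 and 8771 to 9059 genes were above background per array, and replicate 1 of LPS alone had the lowest median of the background probes (4.992, against 5.2 to 5.431 on the others). All 9 measured macrophage markers were above background on all 12 arrays, with mean levels of 15.05 to 15.22. Of them Adgre1 was 2.22-fold lower, Itgam 0.68 log2 units higher and Fcgr1 1.27-fold higher with TsSP added to inulin (limma adjusted p = 0.000795, 0.000705 and 0.0474). Of 7 osteoclast markers, Mmp9 was above background on all arrays and Dcstamp with TsSP only (at least 1.62-fold higher, limma adjusted p = 0.000122), and Acp5, Ctsk, Calcr, Ocstamp and Oscar were below it on all 12. The 6 lymphocyte markers were below background, and none of 7 fibroblast and epithelial markers was above it on all arrays of a group. In bulk RNA, more cells with a transcript and more transcript per cell cannot be told apart, and the part of these marker differences in the rises of the members was not tested.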

How the data were processed

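RNA of 12 samples of RAW264.7 cells was measured on a mouse expression array. The authors deposited 1 log2 value per probe set and array. That the base of the logarithm is 2 was taken from the range of the values (1.32 to 18.9). For background correction, normalization and software, the sources used here give nothing. Of 28846 probe sets, 19572 had 1 gene symbol in the platform annotation and were matched by gene number to RefSeq (GRCm38.p6), which gave 19505 genes. For 55 genes with several probe sets, the one with the highest mean was used.

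Group means of all 12 arrays were fitted with limma 3.58.1 in R 4.3.3 (8 residual and 3.35 prior degrees of freedom, no trend), and p-values were adjusted over all 19505 genes with the Benjamini-Hochberg method at 0.05. The code was tested on simulated data. The members and the lists were chosen with earlier results of these data known. Therefore TsSP with LPS against LPS alone, and inulin and TsSP with LPS against LPS alone, are described without p-values, and TsSP added to inulin, which uses other arrays, is the tested comparison. Its error term still comes from all 12 arrays.

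Named genes were the 10 members, up to 4 other genes per list by smallest p in TsSP added to inulin, all called genes where 5 or fewer are counted, and the 5 genes most correlated with Bnip3 and with Hif1a, without predicted genes. Genes counted in larger groups are listed by name without a choice. Where a gene was below background in a group, its fold is a bound against the brightest background probe. Over the genes above background, same-numbered arrays of different groups did not deviate together (correlations -0.094 to 0.105), so the numbers were not used as pairs. A single gene can depart from this, as with Vegfa, whose replicate 2 was the lowest array of each of the 4 groups. Alternatives were quantile normalization, centring on the median, a mean-variance trend, above-background genes only, only the arrays compared, the replicate number as a block, the mean of probe sets, and leaving out each array.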

Additional observations from a re-analysis of the deposited data

How the results depend on the processing

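Over 19 alternatives, of which 12 left out 1 array, none of the calls of the 10 genes was lost or reversed, and 8 were called higher with TsSP in each of its 3 comparisons. Not all alternatives could move a member's difference. The mean of probe sets repeats the values of the members, since each has a single probe set. Leaving out an array of a group not compared keeps the difference and changes only the error term and the adjustment. With TsSP added to inulin, the largest adjusted p by limma among the 8 called genes was 0.0162, for Vhl. Egln3 has no value where only genes above background were fitted, and the interaction none where only the compared arrays were. Among all genes, TsSP added to inulin gave 1391 higher and 1286 lower with only the compared arrays, 1535 and 1700 with centring, and 1298 to 1743 higher and 1225 to 1594 lower without 1 array. With the replicate number as a block it gave 1525 and 1416, and 8 of the 10 genes stayed called. The block changed no call of a member. With 3 arrays a group, the number of arrays limits the precision, most of all for Pdk1, Ankrd37 and Vegfa, whose signals lie near background in some groups.

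Shifts were set against the gene's pooled SD within groups only in the 2 comparisons described without p-values. There, only the differences of Egln1 from LPS alone moved by more than it. Without replicate 1 of LPS alone they were 2.63 for TsSP and 2.82 for inulin and TsSP. In the tested comparisons and the interaction, only a change of call was followed, not the size of a shift. Counts in the lists, members included, moved by a few genes. For TsSP against LPS alone, the hydroxylase list had 2 lower with quantile normalization or above-background genes only (0 as reported), and the target list 2 lower with a trend. The mitophagy list had 4 lower with a trend or above-background genes only and 1 with the block, the pyruvate dehydrogenase list 2 higher with quantile normalization and 0 lower with only the compared arrays, and the VEGF list 0 higher with the block. For inulin and TsSP against LPS alone, the hydroxylase list had 2 lower under quantile normalization, centring, a trend or above-background genes only, and 0 with only the compared arrays. There the mitophagy list had 4 lower and the pyruvate dehydrogenase list 1 lower with a trend or above-background genes only. The VEGF list had 0 higher with quantile normalization and 0 lower with only the compared arrays. With TsSP added to inulin, quantile normalization or only the compared arrays gave 1 higher subunit gene and 1 lower hydroxylase gene, and only the compared arrays gave 0 lower pyruvate dehydrogenase genes. The cause of these moves was not tested.

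For the list counts that moved by over 1.5 times without 1 array, the ranges were as follows. With TsSP against LPS alone, lower subunit genes numbered 1 to 2, lower targets 1 to 2, lower mitophagy genes 1 to 2, lower pyruvate dehydrogenase genes 0 to 1, and VEGF genes 0 to 1 higher and 1 to 2 lower. With inulin and TsSP against LPS alone, lower hydroxylase genes numbered 0 to 1, lower subunit genes 1 to 2, lower targets 1 to 2, and VEGF genes 0 to 1 in either direction. With TsSP added to inulin, lower hydroxylase genes numbered 1 to 2, higher subunit genes 1 to 2, lower pyruvate dehydrogenase genes 0 to 1, and higher VEGF genes 0 to 1.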
